A study of Mus musculus with 2 samples.

Results

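The genes described here are 10 transcription factor genes that are known from blood vessel endothelium: Erg, Ets1, Fli1, Sox17, Sox18, Klf2, Klf4, Foxq1, Foxf2 and Mecom. They were taken by gene symbol from the gene lists of both count matrices, where they are 10 of 27998 genes, and each had at least 1 UMI (a unique molecular identifier, which marks 1 captured RNA molecule). The samples were single-cell RNA libraries (10x Chromium, 3′ version 2) of spinal cord cells sorted for the yellow fluorescent protein of the Cx3cr1 locus. All mice were C57BL/6J with a Cx3cr1-CreERT2-YFP transgene and a floxed Runx1 gene, here written Cx3cr1-CreERT2-YFP::flxRunx1 as in the labels. The tamoxifen-treated animals, labelled Runx1 knock-out, received 1 mg per day for 5 daily intraperitoneal injections, and cords were taken 4 weeks after the first injection. The vehicle-treated animals, labelled wild type, received 5 vehicle injections, and their cords were also taken 4 weeks after the first injection. Tamoxifen and the knock-out label therefore cannot be told apart. Tissue of both groups was digested for 30 min at 37 °C with 2 mg per ml collagenase. The Cre recombinase is driven by Cx3cr1, the fractalkine receptor gene that microglia and related phagocytes express, so deletion in endothelium is not part of the design. The sources used here do not say how many animals made up a library, nor their age or sex.

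Endothelial cells hold their identity through combinations of transcription factors rather than through a single master gene. ETS family proteins such as ERG, FLI1 and ETS1 bind enhancers of junction and receptor genes, SOX17 and SOX18 act in arterial and lymphatic development, and KLF2 and KLF4 are induced by laminar flow and restrain inflammation. In the central nervous system FOXF2 and FOXQ1 are enriched in barrier endothelium, and MECOM, also called EVI1, is a zinc finger protein of hematopoietic stem cells and arterial endothelium. Several of the genes are not limited to vessels: Fli1, Ets1, Klf2 and Klf4 are also known from blood and immune cells.

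The 10 genes lie on 8 chromosomes of GRCm38 in GENCODE M21. Fli1 (ENSMUSG00000016087, chromosome 9, 32422204 to 32542861, minus strand) and Ets1 (ENSMUSG00000032035, chromosome 9, 32636221 to 32757820, plus strand) are 93.4 kb apart with no protein-coding gene between them. Foxq1 (ENSMUSG00000038415, chromosome 13, 31556134 to 31560976, plus strand) and Foxf2 (ENSMUSG00000038402, chromosome 13, 31625816 to 31631403, plus strand) are 64.8 kb apart, also with none between them. Erg (ENSMUSG00000040732, chromosome 16, 95359169 to 95586593, minus strand) shares its chromosome with the floxed gene Runx1, 2533 kb away with 17 protein-coding genes between them. The remaining genes are Sox17 (ENSMUSG00000025902, chromosome 1, 4490931 to 4497354), Sox18 (ENSMUSG00000046470, chromosome 2, 181669836 to 181671640), Mecom (ENSMUSG00000027684, chromosome 3, 29951296 to 30548008), Klf4 (ENSMUSG00000003032, chromosome 4, 55527143 to 55532466) and Klf2 (ENSMUSG00000055148, chromosome 8, 72319033 to 72321656). Klf2 lies on the plus strand and the other 4 on the minus strand. Annotated genes of the opposite strand that are also in the matrices overlap Foxq1 (A530084C06Rik), Mecom (Mecomos), Ets1 (Gm27240) and Fli1 (Gm27201). The sources used here do not say whether counting used the strand, so reads of these 4 genes and of their partners may have been exchanged.

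Promoter windows of 250 bases before and 50 bases after the transcript start were held for 5 of the 10 genes in RefSeq on GRCm38.p6. Those of Klf2, Klf4 and Erg are shown, since Klf2 and Klf4 were well above the endothelial markers in microglia-like cells, as described below, while Erg was within their range. Capitals mark a match to the MEF2 consensus, the binding letters of the myocyte enhancer factor that is known to activate Klf2 under flow. Both strands were searched for the MEF2 consensus and for CCGGAA, a core of ETS sites.
Klf2, chr8:72318812-72319111, plus strand: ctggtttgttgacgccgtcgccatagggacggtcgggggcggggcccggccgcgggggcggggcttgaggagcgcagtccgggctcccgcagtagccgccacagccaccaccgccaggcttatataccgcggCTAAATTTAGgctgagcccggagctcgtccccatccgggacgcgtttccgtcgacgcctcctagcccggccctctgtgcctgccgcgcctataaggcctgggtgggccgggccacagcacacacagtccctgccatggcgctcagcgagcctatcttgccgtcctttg
Klf4, chr4:55532426-55532725, minus strand: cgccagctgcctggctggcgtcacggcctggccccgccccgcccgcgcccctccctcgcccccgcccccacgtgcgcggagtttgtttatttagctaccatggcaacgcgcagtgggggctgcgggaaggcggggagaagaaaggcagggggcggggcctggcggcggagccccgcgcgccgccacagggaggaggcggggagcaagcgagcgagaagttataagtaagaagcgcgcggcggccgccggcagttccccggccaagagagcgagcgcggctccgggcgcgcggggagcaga
Erg, chr16:95586544-95586843, minus strand: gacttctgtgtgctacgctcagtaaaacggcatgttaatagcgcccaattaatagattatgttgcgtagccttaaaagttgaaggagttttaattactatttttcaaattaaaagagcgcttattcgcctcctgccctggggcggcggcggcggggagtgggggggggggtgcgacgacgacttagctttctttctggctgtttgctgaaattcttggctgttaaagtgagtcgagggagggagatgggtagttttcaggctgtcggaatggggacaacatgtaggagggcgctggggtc
The Klf2 window held 1 MEF2 match, whose first base is at position -118 counted from the transcript start, and the letters occur in 3.19% of the 32851 promoter windows of the table. The windows shown of Klf4 and Erg held none, a second start of Erg (chr16:95530316-95530615, not shown) held 1 at position -16, and CCGGAA, found in 14.9% of all windows, was in none of the 3. The bases were 69.3% G or C in the Klf2 window, 74.3% in the Klf4 window and 50.3% in the Erg window. A match is a description of the letters, and its absence says only that these letters are not in this window.

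The library labelled knock-out had 2604 barcodes and 13075939 UMIs with a median of 3715.5 UMIs per barcode, and the wild-type library had 4582 barcodes and 37446978 UMIs with a median of 6376. The labels state 2600 and 4500 recovered cells of 22800 and 23500 sorted cells for the same libraries, and 9 barcode sequences occur in both. Levels are given as CPM, the UMIs of a gene per 1000000 UMIs of its class in the same library. In microglia-like cells the targeted gene Runx1 was higher under the knock-out label: those so labelled had 1113 UMIs and 180.4 CPM, against 1473 UMIs and 92.7 CPM in wild-type ones. In endothelial-like cells Runx1 was lower under the knock-out label, at a log2 ratio of -0.56 (-0.94 to -0.19). Those so labelled had 75 UMIs and 18.8 CPM, against 327 UMIs and 27.6 CPM in wild-type ones. The 12 microglia markers were all lower in the same endothelial-like cells too, with a median log2 ratio of -1.12. The part of microglial RNA in this Runx1 ratio was not tested. Which part of Runx1 is deleted is not named in the labels, and 3′ tags outside it check nothing. Each group is 1 library, so no test was possible and nothing below has a replicate check. All intervals are at 95% and cover counting error only.

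Cells were clustered without the 10 genes and without Runx1. Endothelial-like cells, which line the vessels, were 836 in the library labelled knock-out and 1625 in the wild-type library. Mural-like cells, the pericytes and smooth muscle cells around the vessels, were 60 and 84, and microglia-like cells were 1359 and 2197 in the same order of libraries. The classes did not share clusters evenly: 813 of the 836 endothelial-like cells labelled knock-out lay in cluster 3, while 1624 of the 1625 wild-type ones lay in cluster 1, and 1351 of the 1359 microglia-like cells labelled knock-out lay in cluster 2, while all 2197 wild-type ones lay in cluster 0. The 12 endothelial markers together had 25693 CPM in endothelial-like cells labelled knock-out and 23718 CPM in wild-type ones. They had 2517 and 7500 CPM in microglia-like cells of the 2 libraries, and none of the 12 was at 0 there. The 12 microglia markers together had 5671 CPM in endothelial-like cells labelled knock-out and 14692 CPM in wild-type ones, again with none at 0. RNA of each class was thus counted in cells of the other, more so in the wild-type library.

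All 10 genes were detected in endothelial-like cells of both libraries, and 9 of them were higher with the knock-out label by an amount beyond counting error. The same held for 32.8% of the 6303 genes measured there and for 8 of the 12 endothelial markers. With every cell thinned to 1500 UMIs, which left out no cell, the median endothelial-like cell held UMIs of 3 of the 10 genes in either library. At least 3 genes were detected in 78.5% (75.5 to 81.2) of thinned endothelial-like cells labelled knock-out and in 64.4% (62.0 to 66.8) of wild-type ones. In microglia-like cells the same share was 9.49% (7.99 to 11.2) in the library labelled knock-out and 19.6% (18.0 to 21.3) in the wild-type library. The 10 genes together had 4445 CPM (4379 to 4510) in endothelial-like cells labelled knock-out and 3919 CPM (3884 to 3955) in wild-type ones, and Klf2 alone gave 46.3% and 52.0% of these UMIs. The tags come from the 3′ end and are not scaled by length, so levels are compared between cells and not between genes.

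**Figure D1:**
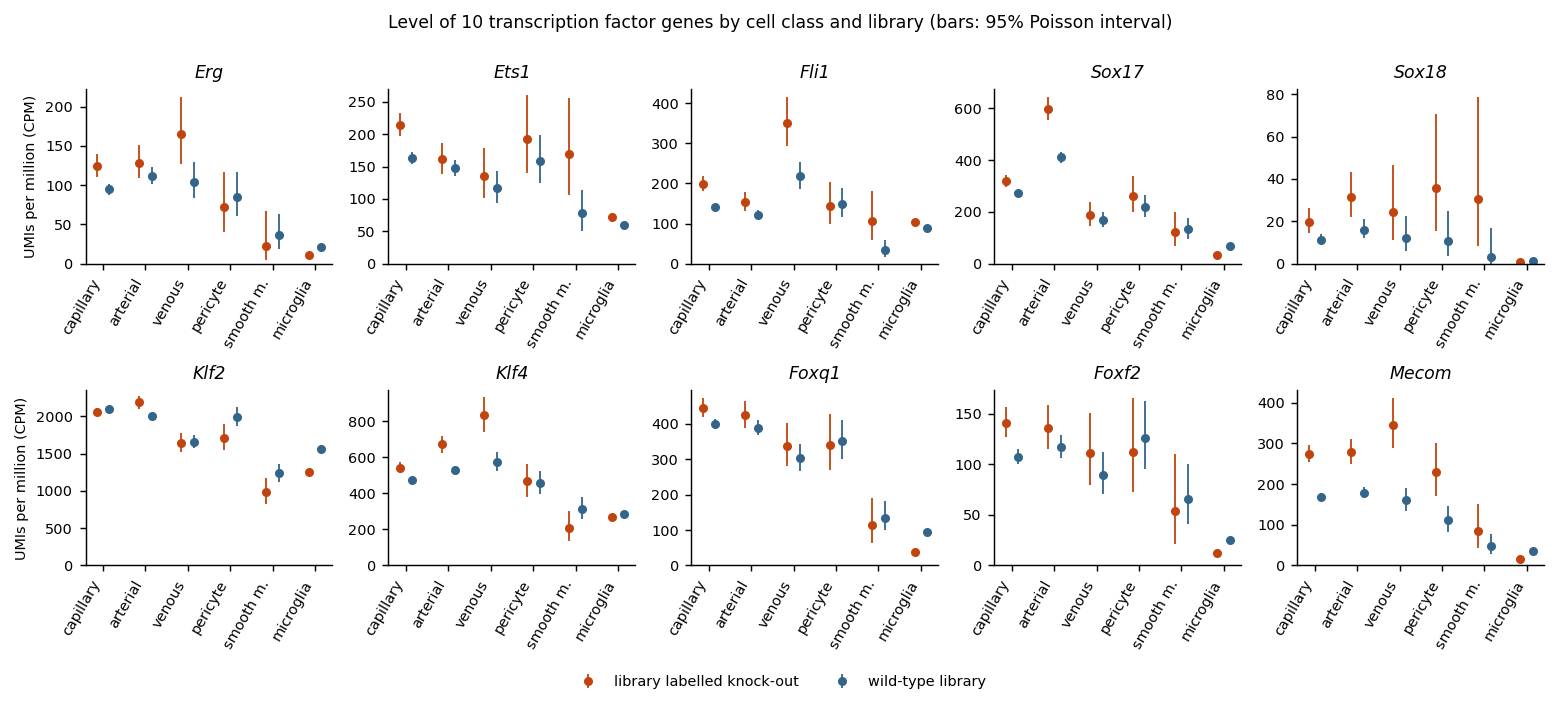
Level of each gene in CPM (UMIs per 1000000, linear axes from 0, with a scale of its own for each gene) in capillary-, arterial-, venous-, pericyte-, smooth muscle- and microglia-like cells, with the library labelled knock-out as the left point of each pair and the wild-type library as the right point; bars are 95% Poisson intervals. Sox17 was highest in arterial-like cells of both libraries, at 598 and 411 CPM, and Klf2 had 1252 and 1560 CPM in microglia-like cells.

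Among the ETS factors, Erg, which maintains junctions and represses inflammatory genes in endothelium, had 129.6 CPM (119 to 141) in endothelial-like cells labelled knock-out and 101 CPM (94.9 to 106) in wild-type ones. It had 53.8 and 64.9 CPM in mural-like cells and 11.5 and 21.3 CPM in microglia-like cells labelled knock-out and wild-type ones. Erg was thus far higher in endothelial-like than in microglia-like cells of both libraries, and the ratio between the libraries ran opposite ways in these classes. Fli1, a relative of Erg that is also active in megakaryocytes and other blood cells, had 200.1 CPM (187 to 215) in endothelial-like cells labelled knock-out and 140.3 CPM (134 to 147) in wild-type ones. In microglia-like cells it had 103 CPM (95.5 to 112) with the knock-out label and 90.0 CPM (85.4 to 94.8) in wild-type cells. Ets1, which acts in vessel growth and in lymphocytes, had 192 and 156 CPM in endothelial-like cells and 71.6 and 60.5 CPM in microglia-like cells of the same libraries. Unlike Erg, Fli1 and Ets1 were thus higher with the knock-out label in both classes.

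Of the SoxF factors, Sox17, which specifies arterial fate, had 386 CPM (367 to 406) in endothelial-like cells labelled knock-out and 307 CPM (297 to 317) in wild-type ones. It had 210 and 183 CPM in mural-like cells and 32.1 and 69.7 CPM in microglia-like cells labelled knock-out and wild-type ones. Sox18, a regulator of lymphatic and vascular development, was the sparsest of the 10 genes. It had 94 UMIs or 23.5 CPM (19.0 to 28.8) in endothelial-like cells labelled knock-out and 152 UMIs or 12.9 CPM (10.9 to 15.1) in wild-type ones. In microglia-like cells it had 5 and 22 UMIs, or 0.810 and 1.38 CPM, and in mural-like cells 12 and 6 UMIs.

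The flow-responsive factor Klf2 was the member with the most UMIs, and its level in endothelial-like cells was 2058 CPM (2014 to 2103) with the knock-out label and 2038 CPM (2012 to 2064) in wild-type cells. These intervals overlap. In microglia-like cells Klf2 had 1252 CPM (1225 to 1281) with the knock-out label and 1560 CPM (1540 to 1579) in wild-type cells. Klf4, its close relative in flow sensing, had 607 CPM (583 to 631) in endothelial-like cells labelled knock-out and 497 CPM (484 to 510) in wild-type ones, and 268 and 283 CPM in microglia-like cells. In cells thinned to 1500 UMIs, a Klf2 UMI was found in 88.9% and 92.0% of endothelial-like and in 70.4% and 85.7% of microglia-like cells labelled knock-out and wild-type ones. Unthinned, these Klf2 shares were 97.4% and 99.7% of endothelial-like cells, at median depths of 3593.5 and 5932 UMIs, and 89.7% and 99.4% of microglia-like cells, at median depths of 3466 and 5531 UMIs.

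Of the forkhead factors, Foxq1, known for its expression in brain endothelium, had 429 CPM (409 to 450) in endothelial-like cells labelled knock-out and 388 CPM (377 to 400) in wild-type ones, and 37.1 and 93.1 CPM in microglia-like cells. Foxf2, which is needed for the blood-brain barrier and is known from both pericytes and endothelium, had 137 CPM (126 to 149) in endothelial-like cells labelled knock-out and 109 CPM (103 to 115) in wild-type ones. It had 112 CPM (72.6 to 166) in pericyte-like cells labelled knock-out and 126 CPM (95.9 to 162) in wild-type ones, from 25 and 59 UMIs. These intervals overlap those of endothelial-like cells in either library. Pericyte-like cells also carried endothelial markers at close to the endothelial-like level, as described below. The overlap therefore cannot show the Foxf2 level of pericytes themselves. Mecom had 282 CPM (266 to 299) in endothelial-like cells labelled knock-out and 171 CPM (164 to 179) in wild-type ones, 176 and 84.8 CPM in mural-like cells, and 15.4 and 34.5 CPM in microglia-like cells. Thinned to 1500 UMIs, 33.0% of endothelial-like cells labelled knock-out and 21.7% of wild-type ones held a Mecom UMI, against 2.65% and 4.60% of microglia-like cells. Erg was found in 18.4% and 12.4% of thinned endothelial-like cells and in 1.55% and 3.37% of microglia-like cells of the same libraries.

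Whether the library labelled knock-out differed from the wild-type library in endothelial-like cells was read from the log2 ratio of CPM. None of the 10 genes reached a 2-fold ratio there, against 3.54% of the 6303 genes with at least 20 CPM in either library (0.714% higher and 2.82% lower). The ratios were 0.87 (0.48 to 1.25) for Sox18, 0.72 (0.61 to 0.83) for Mecom and 0.51 (0.39 to 0.64) for Fli1. They were 0.37 (0.21 to 0.52) for Erg, 0.33 (0.25 to 0.42) for Sox17, 0.33 (0.18 to 0.47) for Foxf2, 0.30 (0.18 to 0.42) for Ets1 and 0.29 (0.22 to 0.36) for Klf4. The smallest were 0.14 (0.06 to 0.22) for Foxq1 and 0.01 (-0.02 to 0.05) for Klf2. The interval lay above 0 for 9 of the 10 genes, against 32.8% of all genes measured, and the median of the 10 was 0.33, against 0.09 over all genes. The 12 endothelial markers had a median ratio of 0.22 in the same cells, with 8 intervals above 0. The 12 microglia markers were all lower in endothelial-like cells labelled knock-out, with a median of -1.12 and 9 of them 2-fold lower, and their part in the higher ratios of the 10 genes was not tested. In the cells with a below-median share of microglia markers in each library, the Mecom ratio was 0.54, beside 0.72 in all endothelial-like cells. The Klf4 ratio was 0.36, beside 0.29, and the sign stayed positive for the same 9 genes. Each library was cut at its own median, which does not make microglia RNA equal between the libraries. The split therefore cannot show what part that RNA had.

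**Figure D2:**
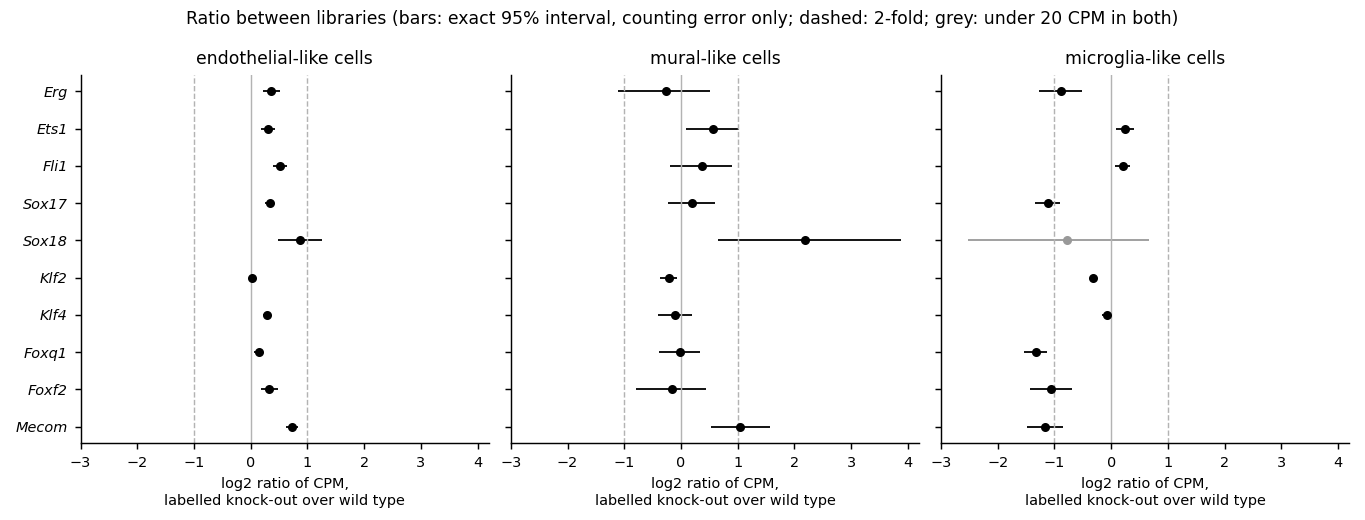
Log2 ratio of CPM, library labelled knock-out over wild-type library, for the 10 genes in endothelial-, mural- and microglia-like cells; bars are exact 95% intervals for counting error, dashed lines mark a 2-fold ratio and grey marks a gene under 20 CPM in both libraries. The 10 endothelial-like ratios lie between 0.01 and 0.87, while Sox17, Foxq1, Foxf2 and Mecom lie below -1 in microglia-like cells.

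In microglia-like cells, 9 of the 10 genes were measured and 4 were 2-fold lower in the library labelled knock-out, against 5.46% of the 5754 genes measured there (7.28% in either direction). These were Foxq1 at -1.33 (-1.53 to -1.12), Mecom at -1.16 (-1.49 to -0.85), Sox17 at -1.12 (-1.35 to -0.90) and Foxf2 at -1.06 (-1.43 to -0.69). Erg was at -0.89 (-1.28 to -0.51) and Klf2 at -0.32 (-0.35 to -0.28). Klf4 was at -0.08 (-0.16 to 0.00), while Fli1 at 0.20 (0.06 to 0.34) and Ets1 at 0.24 (0.08 to 0.41) were higher. The endothelial markers ran the same way as the 4 genes: 12 of 12 were lower in microglia-like cells labelled knock-out, 9 of them 2-fold, with a median of -1.59 and a range of -1.75 to -0.42. The 14 immediate early genes, which rise with cell activation and tissue dissociation, were all above 0 in the same cells, with a median of 0.58. Their part in the Klf2 and Klf4 ratios was not tested.

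To set the 10 genes beside endothelial marker RNA counted in other cells, the level of each gene in microglia-like cells was divided by its level in endothelial-like cells of the same library and set beside the same quotient of the 12 endothelial markers. The quotients of the markers ran from 0.0444 to 0.151 in the library labelled knock-out and from 0.180 to 0.458 in the wild-type library, with Egfl7 the highest in both, so the markers themselves did not share 1 quotient. Fli1 (0.517 and 0.642), Klf2 (0.608 and 0.765) and Klf4 (0.441 and 0.570) were above every marker in the library labelled knock-out and in the wild-type library. Ets1 was above them in the library labelled knock-out, at 0.373 (0.331 to 0.420), and within their range in the wild-type library, at 0.389 (0.360 to 0.421). Erg (0.0888 and 0.212), Sox17 (0.0831 and 0.227), Foxq1 (0.0865 and 0.240), Foxf2 (0.0875 and 0.228) and Mecom (0.0546 and 0.201) were within the marker range in both libraries. Sox18, with 5 and 22 UMIs, was below it at 0.0345 and 0.108. The 5 genes that were within the range in both libraries had ratios between libraries from -1.33 to -0.89 in microglia-like cells. These ratios use the same microglia-like counts as the quotients. The marker range with the knock-out label also lay wholly below the wild-type range, so a gene inside both ranges has a lower quotient with that label. The ratios of these 5 genes are therefore not a separate check on their quotients.

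**Figure D3:**
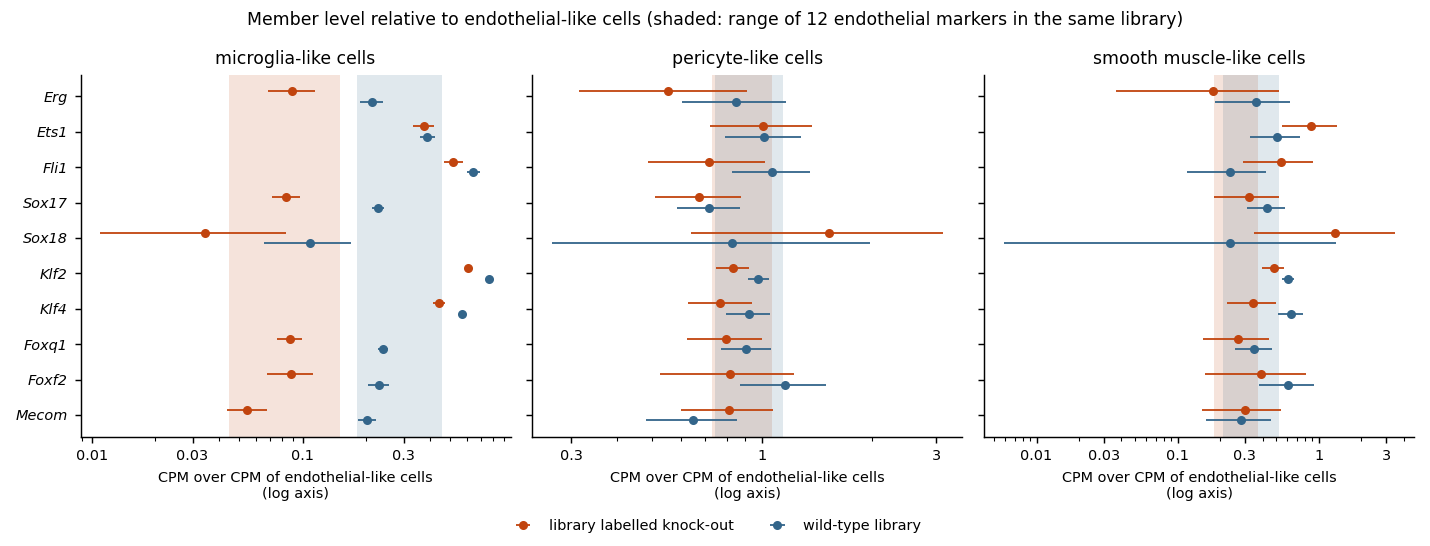
CPM of each gene divided by its CPM in endothelial-like cells of the same library (log axis), in microglia-, pericyte- and smooth muscle-like cells; bars are exact 95% intervals and the shaded bands span the 12 endothelial markers in the same library. Fli1, Klf2 and Klf4 lie to the right of both bands in microglia-like cells. In pericyte-like cells Ets1, Klf2, Klf4 and Foxq1 lie inside the band of the same library in both libraries.

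Mural-like cells carried much endothelial RNA, which limits what can be said of the 10 genes there. The 12 endothelial markers together had 23052 CPM in 33 pericyte-like cells labelled knock-out and 19667 CPM in 41 wild-type ones, close to the level in endothelial-like cells, beside 7711 and 5335 CPM of the 12 pericyte markers. In 27 and 43 smooth muscle-like cells the endothelial markers had 6577 and 9072 CPM. Mecom had 229 CPM in pericyte-like and 84.5 CPM in smooth muscle-like cells labelled knock-out, and 111 and 48.1 CPM in the same wild-type cells. In pericyte-like cells no gene was above every endothelial marker in both libraries, and the marker quotients were 0.731 to 1.06 in the library labelled knock-out and 0.742 to 1.14 in the wild-type library. In smooth muscle-like cells Klf2 was above every marker in both libraries, with 983 CPM (128 UMIs) and 1241 CPM (413 UMIs), or quotients of 0.478 (0.398 to 0.569) and 0.609 (0.551 to 0.671) beside highest markers at 0.371 and 0.525. Foxf2 was also above them, at 0.392 (0.157 to 0.814) and 0.605 (0.378 to 0.921), but rested on 7 and 22 UMIs and its intervals reach into the marker range. Klf2 was higher still in microglia-like cells, at 1252 and 1560 CPM. Of the smooth muscle-like cells, 1 labelled knock-out and 4 wild-type ones were among the highest doublet scores. The part of microglial RNA and of doublets in the smooth muscle quotients was not tested. Over all mural-like cells, 2 of the 10 genes were 2-fold higher in the library labelled knock-out, against 6.61% of the 6713 genes measured (11.8% in either direction). Mecom was at 1.05 (0.53 to 1.57) from 62 and 68 UMIs. This ratio was 0.15 with each library clustered on its own and 0.49 over the whole mural cluster, both short of 2-fold. Sox18 was at 2.18 (0.66 to 3.88) from 12 and 6 UMIs. In the same cells 11 of 11 measured pericyte markers were above 0, with a median of 0.62, and their part in these ratios was not tested.

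The 10 genes also differed along the vessel. Endothelial-like cells were split by markers into capillary-like (538 labelled knock-out and 1078 wild-type), arterial-like (262 and 492) and venous-like cells (36 and 55), without using the 10 genes. The venous-like cells were deeper, with medians of 10290 and 14180 UMIs beside 3411.5 and 5439.5 in capillary-like cells. Hemoglobin genes were among the leading genes of the venous-like cells labelled knock-out, with 15254 CPM for the 5 erythrocyte markers, against 5690 CPM in the wild-type ones. The part of depth and of red cell RNA in the venous values was not tested.

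Sox17 gave the widest spread between segments. It had 598 CPM in arterial-like and 318 CPM in capillary-like cells labelled knock-out, and 411 and 272 CPM in these segments of the wild-type library. The log2 ratio of arterial- over capillary-like cells was 0.91 (0.76 to 1.06) in the library labelled knock-out and 0.59 (0.50 to 0.69) in the wild-type library. In venous-like cells Sox17 was lower than in capillary-like cells, at -0.76 (-1.14 to -0.41) and -0.68 (-0.94 to -0.43). Arterial- and capillary-like levels of Sox17 did not overlap within their intervals in either library. Klf4 was higher in arterial-like cells, at 0.31 (0.18 to 0.44) and 0.16 (0.08 to 0.25), and in venous-like cells, at 0.62 (0.43 to 0.80) and 0.28 (0.14 to 0.42), in the library labelled knock-out and the wild-type library. Its lowest endothelial level was thus in capillary-like cells of both libraries. Mecom had 345 CPM in venous-like cells labelled knock-out and 159.8 CPM in wild-type ones, a log2 ratio of 1.11 (0.75 to 1.47).

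Fli1 ran the other way from Sox17. It had 350.3 CPM in venous-like, 199.5 CPM in capillary-like and 153 CPM in arterial-like cells labelled knock-out, and 218, 140.3 and 122 CPM in the same segments of the wild-type library. Its venous over capillary ratio was 0.81 (0.52 to 1.09) in the library labelled knock-out and 0.63 (0.39 to 0.86) in the wild-type library. Ets1, its neighbour on chromosome 9, was instead lower in venous- than in capillary-like cells, at -0.66 (-1.11 to -0.24) and -0.49 (-0.80 to -0.19). Klf2 was lower in venous-like cells by similar amounts in both libraries, at -0.32 (-0.45 to -0.20) and -0.34 (-0.42 to -0.26), and so was Foxq1, at -0.40 (-0.68 to -0.13) and -0.40 (-0.59 to -0.21). The arterial over capillary intervals of Foxq1, Foxf2 and Mecom included 0 in both libraries. Against capillary-like cells, none of the 10 genes reached a 2-fold ratio in arterial- or venous-like cells. Of arterial- against capillary-like cells, 2.09% of the 6399 genes measured were 2-fold higher in arterial-like and 1.41% in capillary-like cells labelled knock-out. In the wild-type library 1.00% and 0.477% of 6076 genes were so. For venous- against capillary-like cells these shares were 4.54% and 5.75% with the knock-out label, and 2.09% and 1.41% in the wild-type library.

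**Figure D4:**
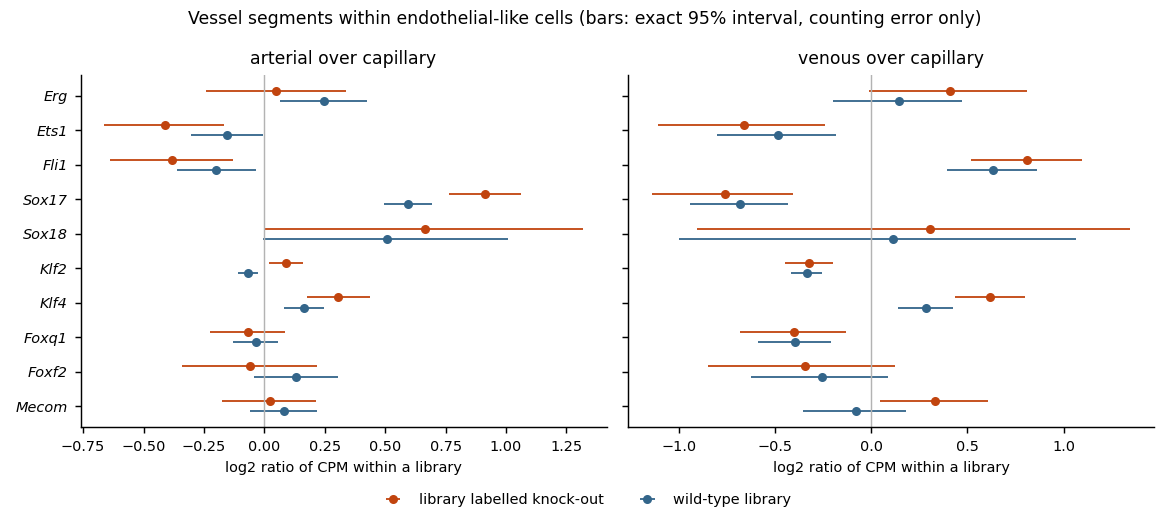
Log2 ratio of CPM of arterial-like over capillary-like cells (left) and venous-like over capillary-like cells (right) for the 10 genes in the library labelled knock-out and the wild-type library; bars are exact 95% intervals for counting error. Sox17 lies at 0.91 and 0.59 in the left panel and at -0.76 and -0.68 in the right panel, and Fli1 lies at 0.81 and 0.63 in the right panel.

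Across the 6 finer classes, the order of levels was the same in both libraries for Sox17 and for Foxq1. Sox17 ran from arterial-like over capillary-, pericyte-, venous- and smooth muscle- to microglia-like cells, with its first and last steps beyond the intervals and the rest within them. Foxq1 ran from capillary-like over arterial-, pericyte-, venous- and smooth muscle- to microglia-like cells, with its last 2 steps beyond the intervals. Microglia-like cells had the lowest level of 7 genes in both libraries: Erg, Ets1, Sox17, Sox18, Foxq1, Foxf2 and Mecom. This last step was within the intervals for Erg in both libraries and for Ets1, Sox18 and Mecom in the wild-type library. The highest level was 18.6 and 5.90 times the lowest for Sox17 and 22.4 and 5.18 times for Mecom in the library labelled knock-out and the wild-type library. For Klf2 the same quotient was 2.23 and 1.69.

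Other genes of the same pathways were described in endothelial-like cells by their ratios between the libraries. Of all 6303 genes measured there, 2066 had intervals above 0 and 1190 below, and 0.714% were 2-fold higher and 2.82% 2-fold lower. Of 26 other endothelial transcription factor genes 21 were measured, with a median of 0.35, 15 intervals above 0 and 2 below. Smad6, an inhibitor of BMP signalling, was 2-fold higher at 1.10 (103 UMIs in the library labelled knock-out and 142 UMIs in the deeper wild-type library), and the SoxF gene Sox7 was at 0.59. Lyl1 at -0.47 and Hhex at -0.29, both known from blood and endothelial development, were lower. All 17 genes listed as targets of ETS factors were measured, with a median of 0.32 and none 2-fold apart. The Notch ligand Dll4 was at 0.66, the angiopoietin receptor relative Tie1 at 0.60, Egfl7 at -0.04 and the sialomucin Emcn at -0.17. Of 8 genes listed as KLF targets, a list not split by direction of regulation, 7 were measured. The adhesion molecule Vcam1 was 2-fold higher at 1.21 (133 and 57.7 CPM). It is also a venous marker here and among the leading genes of the venous-like cells of both libraries. Venous-like cells gave 368301 of the 3997520 endothelial-like UMIs labelled knock-out and 813409 of the 11827111 wild-type ones. Their part in the Vcam1 ratio was not tested. Thbd (thrombomodulin, an anticoagulant receptor) was at 0.69 and Ccl2 at 0.19. Ptgds (prostaglandin D synthase) was 2-fold lower at -1.96 (18.0 and 70.1 CPM). Ptgds is also among the leading genes of the oligodendrocyte-like cluster and was at -1.74 in microglia-like cells. The 3 measured oligodendrocyte markers were all lower in endothelial-like cells labelled knock-out, with a median of -1.31, and the 7 markers of that list together had 71.0 CPM there and 185 CPM in wild-type ones; their part in the Ptgds ratio was not tested.

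The 15 measured barrier genes had a median of 0.37, with Axin2 and Lef1, both known as responders to Wnt, at 0.62 and 0.57, and the transporter Abcg2 and the membrane protein Itm2a at -0.03 each. Among 23 measured paralogs of the 10 genes the median was 0.28, with Elk4 at 0.70, Erf at 0.67, Etv3 at -0.04 and Spi1 at -1.04. Spi1, the ETS factor of myeloid cells, had 68.3 CPM in endothelial-like cells labelled knock-out and 140.1 CPM in wild-type ones, and moved with the microglia markers given above. The 14 immediate early genes had a median of 0.11 in endothelial-like cells, with Nr4a1 2-fold higher at 1.00, Zfp36 at 0.35, Ier3 at -0.13 and Atf3 at -0.46. The medians of these 6 lists lay between 0.11 and 0.37, beside 0.33 for the 10 genes and 0.09 for all genes measured. Some genes are in more than 1 list, such as Lef1, and some are endothelial markers that named the cells, such as Cldn5. The medians are therefore not separate observations.

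The genes most like each of the 10 across classes were found by Pearson's r of log2(CPM + 5) over 12 profiles, the 6 finer classes in each library, among 8561 genes. The profiles share libraries, depth and free RNA, and r is given as a description. Mecom was most like Cx3cl1 (r = 0.99), the endothelial ligand of Cx3cr1, followed by Ppfibp1 and Pde2a. Foxq1 was most like Aldh2, Aqp11 and Clic5 (each 0.99). Plscr4 and Tagln2 were among the 3 genes most like Sox17 (0.98 each), and Gbp4 and Kif26a among the 3 most like Erg (0.98 each). Foxf2 was most like Id3, Anxa2 and Ccnd3 (each 0.98), Klf2 like Hprt, Cd34 (0.97 each) and Casp6 (0.96), and Klf4 like Gbp4, Trim37 and Rnf213 (each 0.96). Ets1 was most like Ctbp1 (0.96), Mfhas1 (0.95) and Isca2 (0.94), Sox18 like Cops8, Nfyb (0.96 each) and Mum1 (0.95), and Fli1 like Stx6 (0.94), Ostf1 (0.93) and Tmem88 (0.92). Sox18 had only 4 and 1 UMIs in smooth muscle-like, 8 and 5 in pericyte-like and 9 and 10 in venous-like cells of the 2 libraries. Each r with Sox18 thus carries much counting error. Among the 45 pairs of the 10 genes themselves, Foxq1 and Foxf2, the neighbours on chromosome 13, had the highest r over these profiles (0.97). Erg and Foxq1, which lie on different chromosomes, followed at 0.95. Fli1 and Ets1, the neighbours on chromosome 9, had 0.53, and Klf2 and Sox18 had the lowest (0.28). From cell to cell the picture differed. Across thinned endothelial-like cells, Spearman's rank correlation of Foxq1 and Foxf2 was 0.002 with the knock-out label and 0.030 in the wild-type library. The highest of the 45 pairs there was Klf2 and Klf4, at 0.138 and 0.143. Thinned cells hold few UMIs of most of these genes.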

How the data were processed

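The authors deposited UMI counts, not normalized, as 1 gene by barcode matrix for each library; per the labels' protocols both were 10x Chromium 3′ libraries of sorted cells. Per the submitters' processing notes the tools were STAR, Cell Ranger 2.0.1 and Seurat 2.1.0, on mm10 and GRCm38.p5; their roles, and how barcodes were kept, are not given in the sources used. The 10 genes, the lists and the markers were chosen with earlier results of these data known.

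Barcodes under 300 genes or over 10% mitochondrial UMIs were left out, 8 with the knock-out label and 0 wild-type ones. Both libraries were clustered together (scanpy 1.11.5, leidenalg 0.10.2; 2000 variable genes, 30 principal components, 15 neighbours, resolution 0.5) without the 10 genes, Runx1 and the sex-linked genes. A cluster took the name of the marker list that led it (at least 3 markers and 50% of the list); the study's own names may differ. Endothelial- and mural-like cells were clustered again at resolution 0.5 and 1.0, with genes scaled within each library. A mixed microglia and endothelial cluster (139 cells labelled knock-out and 447 wild-type), of which 42 and 152 cells were among the highest doublet scores, and 79 and 111 cells of the mural cluster stayed unnamed and were not used. No doublet caller entered the values given.

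CPM are a gene's summed UMIs per 1000000 UMIs of its class in 1 library. Ratios are knock-out label over wild type. CPM carry exact Poisson intervals, ratios exact conditional binomial intervals and shares Clopper-Pearson intervals, at 95%. Genes entered at 20 CPM in either library, a call is a 2-fold ratio, and 0 UMIs were replaced by 3. On simulated data for endothelial-like cells with 6303 genes, the interval held the true ratio for 95.2% of 6103 unchanged genes; 0% of these were called, as were 54% of genes made 2-fold higher and 50% made 2-fold lower. For mural-like cells with 6713 genes, 4.51% of 6513 unchanged genes were called. The simulated counts held Poisson counting error only. These shares therefore do not cover differences between real libraries and are no error rate for the calls given here. Genes were named by rule: the 10 members, Runx1, the 3 genes most like each member, and the 2 highest and 2 lowest ratios of each list in endothelial-like cells. For Erg and Sox17, 1 of the 3 is not reported here. The highest endothelial marker was named after its values were seen. Alternatives changed scaling, the total, cell weight, depth, filter, doublets, class, minimum, clustering and call rule. Positions are from GENCODE M21 on GRCm38.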

Additional observations from a re-analysis of the deposited data

Results flagged for a closer look

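Several of the genes had ratios between the library labelled knock-out and the wild-type library that ran opposite ways in different cell classes. With 1 library per group none of these differences was tested. Erg was at -0.89 in microglia-like cells and at 0.37 in endothelial-like cells. Sox17 was at -1.12 in microglia-like cells and at 0.33 in endothelial-like cells. Foxq1 was at -1.33 in microglia-like cells and at 0.14 in endothelial-like cells. Foxf2 was at -1.06 in microglia-like cells and at 0.33 in endothelial-like cells. Mecom was at -1.16 in microglia-like cells, at 0.72 in endothelial-like cells and at 1.05 in mural-like cells, where it was 0.15 with each library clustered on its own. The 12 endothelial markers had medians of -1.59 in microglia-like and 0.22 in endothelial-like cells.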

How the results depend on the processing

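Of 85 counts recomputed under the alternatives, 64 stayed within 1.5 times their first value and 21 moved. The 3 genes above the endothelial markers in microglia-like cells were Fli1, Klf2 and Klf4 under each alternative run. In mural-like cells that number was 0, and became 3 with the mean per cell, 3 with each library clustered on its own, and 1 each with no cell filter, with cells low in endothelial markers, at resolution 1.0 and with the whole mural cluster. Genes 2-fold apart in mural-like cells among the 10 numbered 2, and 1 with centred ratios, the mean per cell, own clustering, resolution 1.0 and the whole mural cluster. Among all genes in mural-like cells 791 were 2-fold apart, and 2380 with thinned cells, 1450 at 10 CPM, 1882 in cells low in endothelial markers, 2016 with own clustering, 455 where the interval had to leave out 0 and 337 with the whole mural cluster. In endothelial-like cells 223 genes were 2-fold apart, and 338 at 10 CPM, 143 with own clustering and 98 at resolution 1.0, while the 10 genes gave 0, and 1 (Sox18) with own clustering. The cause was not tested, other than that thinning, a lower minimum and fewer cells leave fewer UMIs per gene. The whole mural cluster was chosen after seeing the data.

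Of 298 recomputed ratios of the 10 genes, 260 stayed within their interval and 38 moved. Klf2 in endothelial-like cells changed sign, with a range of -0.10 to 0.01. The other 9 genes kept their sign in endothelial-like cells, down to 0.00 for Foxq1 at resolution 1.0. In mural-like cells Klf2, Mecom and Sox18 kept their sign where measured and the other 7 did not. Mecom there ranged from 0.15 to 1.10, and was below a 2-fold ratio in the 5 alternatives with 1 gene called, with thinned cells (0.73) and in cells low in endothelial markers (0.76). Of 20 lists of most similar genes under another pseudocount, 8 kept all 3 genes. No paired analysis was possible because there is 1 library per group. Mural-like and venous-like values rest on few cells.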

Other observations

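Erythrocyte-like cells, 73 with the knock-out label and 56 wild-type ones, held the 10 genes at 3057 CPM (2910 to 3210) and 2771 CPM (2645 to 2900), beside 330461 and 252855 CPM of the 5 erythrocyte markers. The 12 endothelial markers together had 15960 and 16431 CPM in these cells. None of the 10 genes was above every endothelial marker there in both libraries, and Mecom had 188 CPM (153 to 229) in those labelled knock-out and 104 CPM (80.8 to 132) in wild-type ones. In 28 ependymal-like cells labelled knock-out and 19 wild-type ones the 10 genes had 891 CPM (768 to 1028) and 1663 CPM (1516 to 1821).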
